A study of Homo sapiens with 8 samples.

Results

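The genes described here are the nuclear genes of mitochondrial respiratory complexes I, II and III, chosen by their symbols alone: the NDUF subunits and NDUFAF assembly factors of complex I, SDHA to SDHD and the SDHAF factors of complex II, and the UQCR genes and CYC1 of complex III. The symbols gave 60 genes out of the 63677 in the count tables, of which 7 encode core subunits of complex I, 31 its accessory subunits, 7 its assembly factors, 4 the subunits of complex II, 2 its assembly factors, and 9 the subunits of complex III. RNA-seq was performed on the multiple myeloma (MM) cell lines JJN3 and H929, each grown for 24 h in DMSO, the vehicle, or in 50 nM THZ1, which binds the transcription kinase CDK7 covalently. There were 2 libraries per line and treatment, 8 in all, with 17476443 to 19194371 counts on genes. The labels do not say whether replicate libraries came from separate cultures, so the p-values measure the spread between these libraries only.

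Complexes I to III are the part of the respiratory chain that takes electrons from NADH and succinate, passes them to ubiquinone and hands them to cytochrome c. Complexes I and III pump protons across the inner mitochondrial membrane, while complex II, succinate dehydrogenase, is also an enzyme of the citric acid cycle and has all its subunits encoded in the nucleus. Complexes I and III are built from subunits of both the nuclear and the mitochondrial genome, and complex I in particular depends on a set of assembly factors that are not part of the finished enzyme.

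The libraries labelled H929 DMSO and H929 THZ1 differed in more than treatment. Of the counts on immunoglobulin light chain V genes, 99.99% and 97.96% lay on lambda genes in the H929 DMSO libraries, but 0.212% and 0.211% in the H929 THZ1 libraries, against 0.257% to 0.391% in the 4 JJN3 libraries. A difference between the H929 labels therefore mixes the source of the RNA with the treatment, and the 2 cannot be told apart. All 8 plasma cell markers examined had counts in every library, though SLAMF7 in H929 DMSO library 1 lay below the level of 3 counts (0.160 CPM). They summed to 2089 and 2125 CPM (counts scaled to a common library size) in JJN3 DMSO, 1387 and 1411 CPM in JJN3 THZ1, and 1762 and 1921 CPM in H929 DMSO, while the H929 THZ1 libraries stood apart at 7160 and 7072 CPM. SLAMF7, a surface marker of plasma cells, was at 0.107 and 9.65 CPM in H929 DMSO and 485.4 and 501.7 CPM in H929 THZ1. By contrast, 4 B cell markers summed to 0.166 to 4.04 CPM and 4 myeloid markers to 0.0520 to 1.07 CPM. The 4 T cell markers summed to 1.01 to 4.41 CPM in 6 libraries and to 35.0 and 35.9 CPM in the H929 THZ1 libraries, almost all of it CD3E, with CD3D at 0 there. The part of these marker levels in the results was not tested. In bulk RNA a lower level in each cell and a smaller share of the cells that express a gene cannot be told apart.

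Some of these genes share short sequences around their start sites. Promoters (250 bases before to 50 bases after the start) were available for 50 of the 60 genes from RefSeq on GRCh38.p14, and were searched on both strands for 6 motifs, whose matches may share bases. The YY1 motif AANATGGC was found in 17 of 50 (34%), against 6.82% of all 27305 promoters and 10.8% of the 9265 promoters whose gene was tested in JJN3. The NRF1 core CGCATGCG was found in 6 of 50 (12%), against 2.19% and 4.1%. The ETS core CCGGAAG, bound by GABP among others, was found in 12 of 50 (24%), against 10.7% and 20%. NRF1 and GABP are the factors best known for activating nuclear respiratory genes.

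The NRF1 matches are shown with the bases around them (30 bases, 5′ to 3′ on the strand of the gene, GRCh38.p14, the motif in capitals), because they include genes that fell with THZ1 and genes that did not pass the test.
SDHD (chr11:112086753-112086782, + strand): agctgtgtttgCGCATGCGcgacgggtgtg
NDUFB4 (chr3:120596167-120596196, + strand): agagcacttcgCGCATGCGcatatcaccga
NDUFS7 (chr19:1383822-1383851, + strand): gttccggtttcCGCATGCGctccgagccgc
NDUFS6 (chr5:1801351-1801380, + strand): cagaagccgtgCGCATGCGttagcgctaag
NDUFA8 (chr9:122159764-122159793, - strand): gttgccggatgCGCATGCGcaggcgccgtg
NDUFAF5 (chr20:13785014-13785043, + strand): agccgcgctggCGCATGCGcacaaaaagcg

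The YY1 matches sat close to the start site: 15 of the 18 matches lay within 50 bases of it, all 15 after it. The letters of this motif include ATG, and whether these matches lie on translation start codons was not tested. The examples shown in the same form are those within 50 bases in genes called in at least 1 of the comparisons of THZ1 with DMSO (in NDUFV2 the match is on the opposite strand).
SDHAF2 (chr11:61430133-61430162, + strand): tgcaggtggggAAAATGGCggtgtctacag
SDHB (chr1:17054004-17054033, - strand): cgtcaggagccAAGATGGCggcggtggtcg
NDUFA3 (chr19:54102865-54102894, + strand): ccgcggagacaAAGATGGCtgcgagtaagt
NDUFA9 (chr12:4649113-4649142, + strand): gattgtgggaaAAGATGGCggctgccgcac
UQCR10 (chr22:29767385-29767414, + strand): gactgtgaagaAACATGGCggccgcgacgt
UQCRC1 (chr3:48609605-48609634, - strand): actgcagctggAAGATGGCggcgtccgtgg
NDUFV2 (chr18:9102719-9102748, + strand): gggaaggtgaacagtgtggcccGCCATGTT

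The other motifs were less frequent than, or within 3 percentage points of, the promoters of genes tested in JJN3. The SP1 motif GGGCGG was in 56% (69.7% of the promoters of tested genes), the E-box CACGTG in 10% (10.4%) and TATAAA in 8% (5.4%). In JJN3 the genes with a YY1 match had a median log2 fold change with THZ1 of 0.04 (16 tested) and those without one 0.07. Those with an NRF1 match had a median of -0.33 (6 tested) and those without one 0.08, while the corresponding medians for the ETS core were 0.11 (12 tested) and -0.01. A match is a description of the letters in these windows.

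In JJN3, THZ1 treatment was accompanied by lower transcripts of most assembly factors, while the subunits of the complexes moved in both directions. Subunits that were called ranged from -1.003 to 0.83 on the log2 scale. The upper end is NDUFV2, whose counts are uncertain, and the next largest rise was that of NDUFA1, 0.78. Of the 9 assembly factors, 6 were lower and none was higher (median log2 fold change -0.60), whereas of the 50 subunits tested 5 were lower, 10 higher and 35 passed in neither direction (median 0.16). Over all 59 genes tested 11 were lower and 10 higher, against 21.3% lower and 20.6% higher among the 13984 genes tested. The members' shares, 18.6% and 16.9%, were near that background. A gene was called by edgeR's quasi-likelihood test at a Benjamini-Hochberg adjusted p under 0.05 and a log2 fold change beyond 0.5 in either direction, the limits used by the study. For the assembly factors, 0 were higher also at an unadjusted p under 0.05 and 0 by DESeq2, which called 5 of them lower. Here and below, higher and lower are relative to the other genes of the same libraries. Whether the amount of RNA per cell changed with THZ1 was not measured, so a relative rise need not be a rise per cell.

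**Figure D1:**
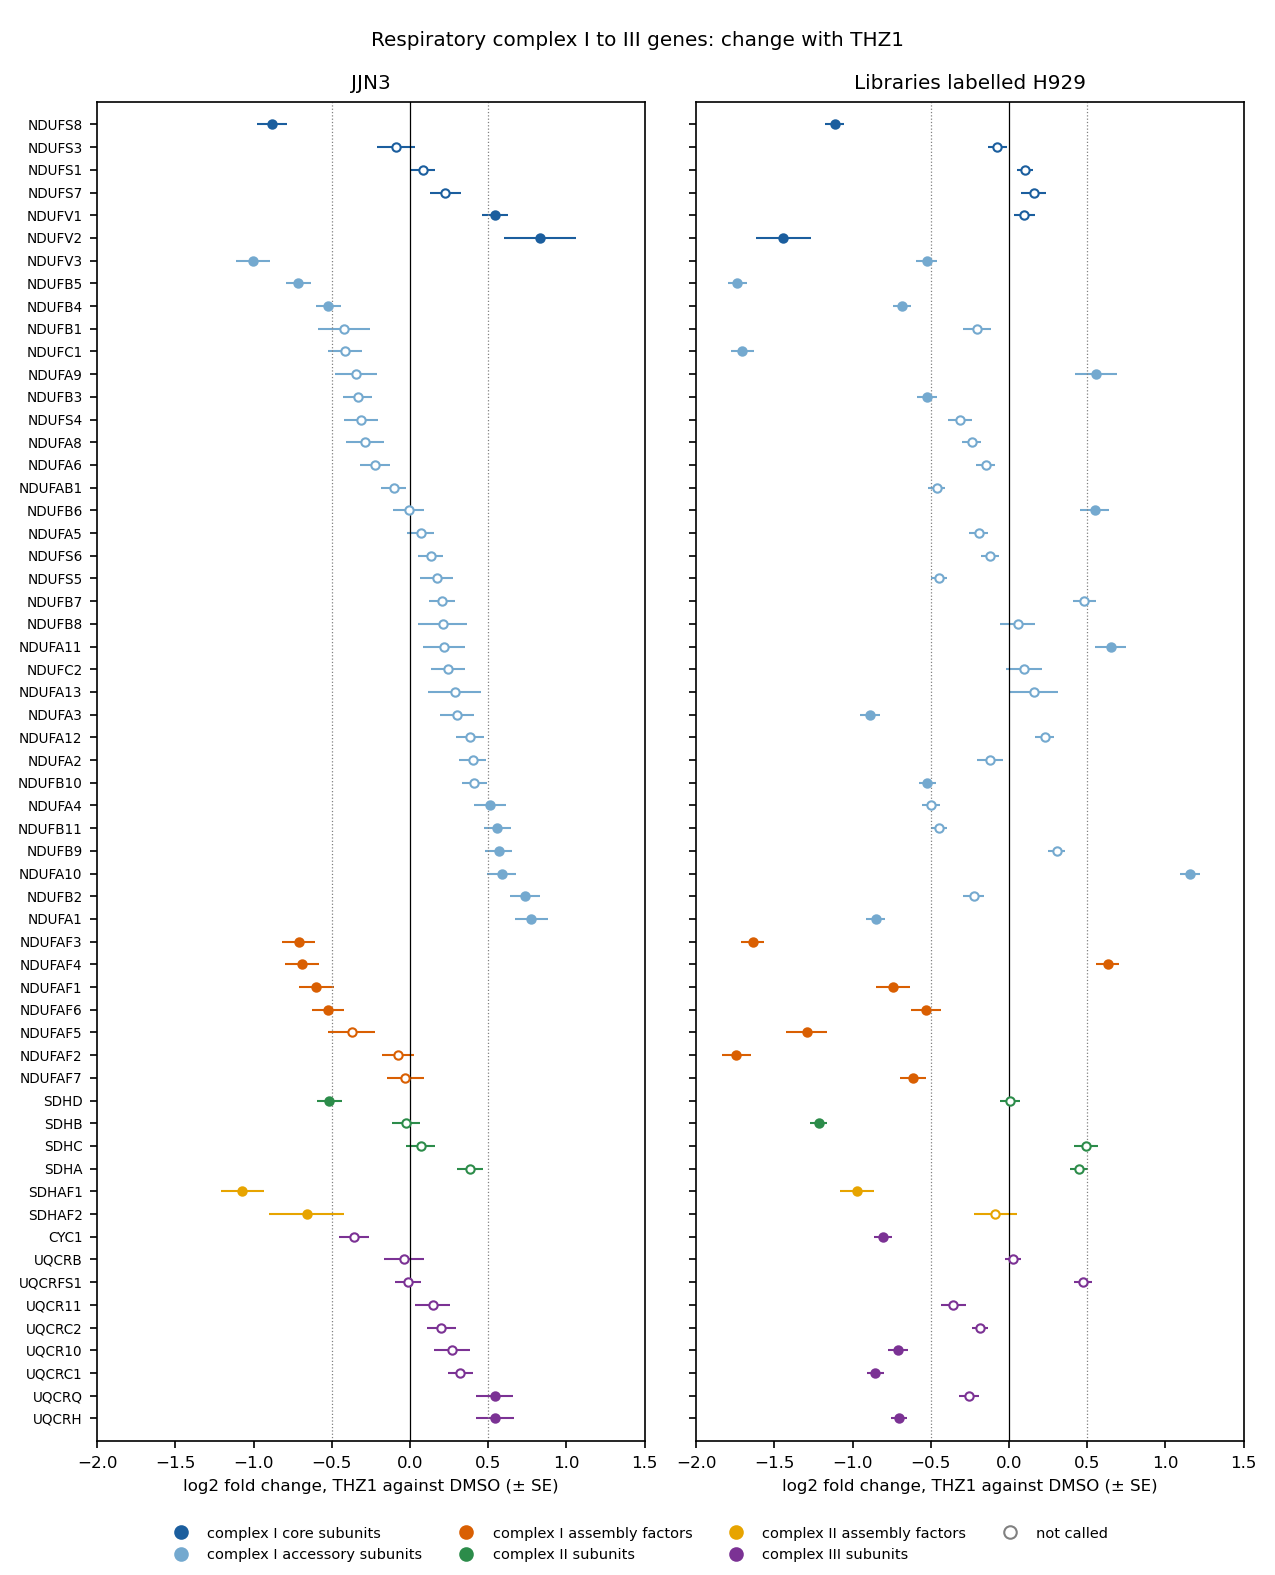
Log2 fold change of each gene with THZ1 against DMSO (x axis, ± standard error of the edgeR estimate, 2 libraries against 2) in JJN3 (left) and between the libraries labelled H929 (right). Genes are grouped by role and ordered within a role by the JJN3 value, filled points passed the test, and dotted lines mark log2 fold changes of -0.5 and 0.5. In JJN3 the 9 assembly factors all lie left of 0, from -1.07 to -0.03, while the subunits of complex III spread from -0.36 to 0.54.

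Together the complex I assembly factors took 0.0260% and 0.0287% of all counts in the DMSO libraries of JJN3 and 0.0176% and 0.0190% in the THZ1 libraries. The complex II factors took 0.0030% and 0.0034% with DMSO and 0.0013% and 0.0018% with THZ1. The accessory subunits of complex I took 0.261% and 0.282% with DMSO and 0.301% and 0.278% with THZ1, so that for them the groups overlapped.

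Largest of these falls was SDHAF1, a small LYR-motif protein that helps to place iron-sulfur clusters in SDHB. It was measured at 22.9 and 23.7 CPM (here and below with TMM normalization over the 8 libraries) in the JJN3 DMSO libraries and at 9.60 and 12.3 CPM in the THZ1 libraries, a log2 fold change of -1.07 ± 0.14 (SE, adjusted p = 6.23e-05). Both THZ1 libraries lay below both DMSO libraries. The other complex II factor, SDHAF2, needed to attach the flavin cofactor to SDHA, was low throughout, at 6.42 and 9.53 CPM with DMSO and 4.10 and 5.84 CPM with THZ1 (log2 fold change -0.66 ± 0.24, adjusted p = 0.033). DESeq2 did not call SDHAF2, and 57.7% of its exon bases are shared with another annotated gene.

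NDUFAF3 and NDUFAF4, partners that act early on the ubiquinone-binding arm of complex I, both fell in JJN3. NDUFAF3 was at 45.6 and 49.8 CPM with DMSO and 31.4 and 26.4 CPM with THZ1 (log2 fold change -0.71 ± 0.11, adjusted p = 0.000189). NDUFAF4 was at 45.4 and 53.8 CPM with DMSO and 28.7 and 32.0 CPM with THZ1 (log2 fold change -0.69 ± 0.11, adjusted p = 0.000264). For both genes every THZ1 value was under every DMSO value.

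NDUFAF1, a factor of the membrane arm, and NDUFAF6, which acts early in assembly, also fell, by 0.60 and 0.52 on the log2 scale. Neither call held without THZ1 library 1 of JJN3, and that of NDUFAF6 also did not hold without DMSO library 2. NDUFAF5, which modifies NDUFS7, gave -0.37 ± 0.15 (adjusted p = 0.0509), NDUFAF2, a paralog of NDUFA12 that acts late, -0.08 ± 0.10, and NDUFAF7, a methyltransferase of complex I assembly, -0.03 ± 0.12. Without THZ1 library 1 the number of assembly factors lower in JJN3 was 3 rather than 6, namely SDHAF1, NDUFAF3 and NDUFAF4.

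**Figure D2:**
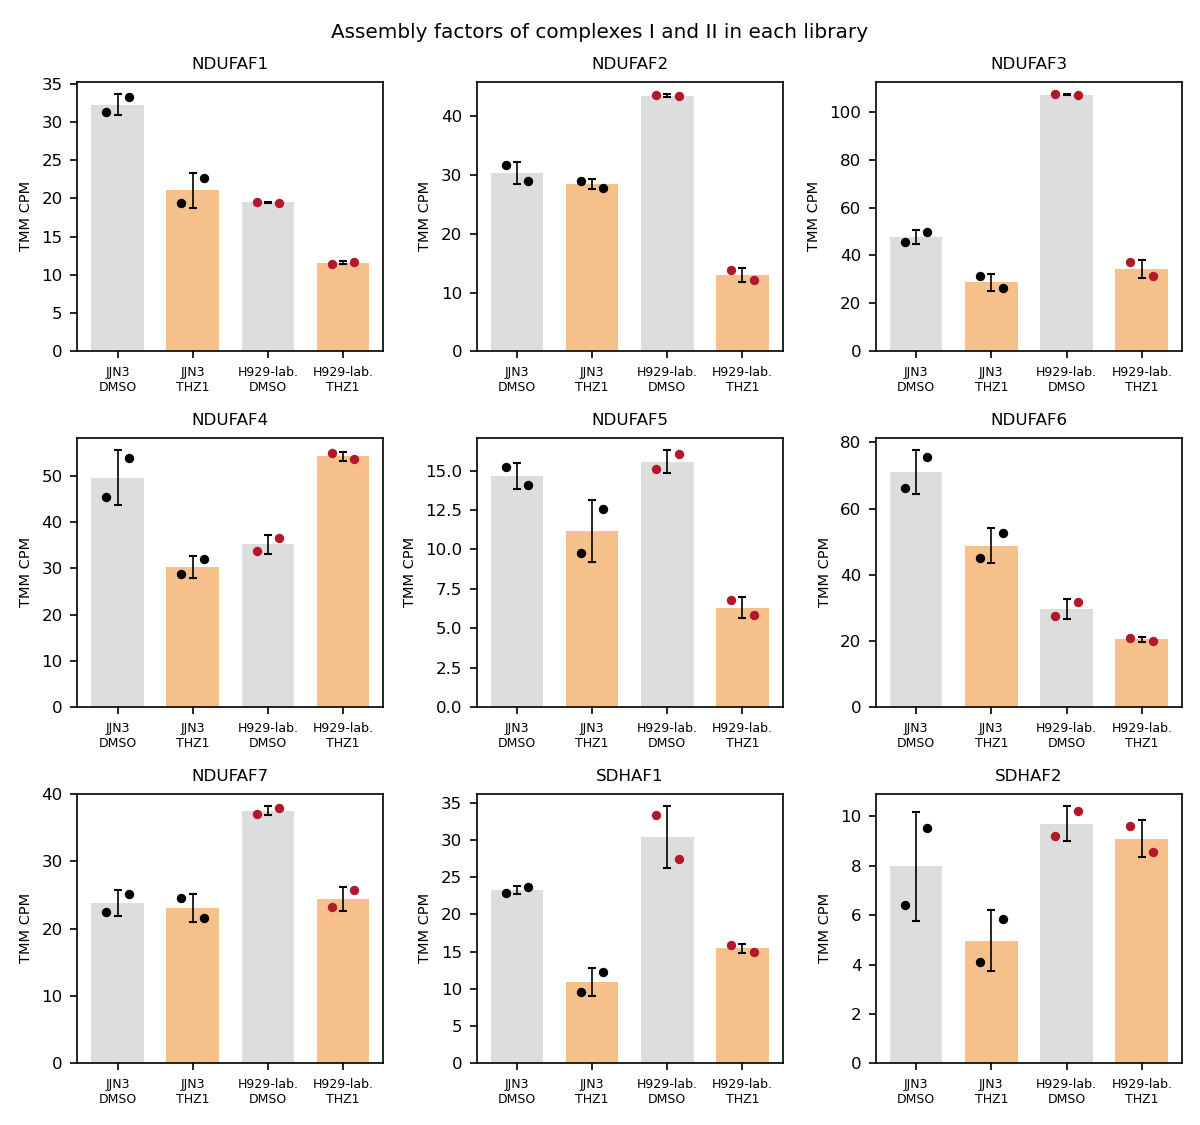
Level of the 9 assembly factors of complexes I and II in each library (y axis, TMM-normalized CPM, linear and starting at 0), as points for the libraries, bars for group means and error bars for the SD of 2 libraries. In JJN3 (black points) SDHAF1 fell from 22.9 and 23.7 to 9.60 and 12.3, and NDUFAF4 is the factor that is lower with THZ1 in JJN3 and higher in the THZ1 libraries labelled H929 (red points).

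The core subunits of complex I, which carry the flavin, the iron-sulfur clusters and the ubiquinone site, split in JJN3, with 1 lower, 2 higher and 4 in neither direction. NDUFS8, which holds iron-sulfur clusters close to the ubiquinone site, was at 73.96 and 83.67 CPM with DMSO and 44.7 and 40.2 CPM with THZ1 (log2 fold change -0.88 ± 0.10, adjusted p = 1.99e-05). NDUFV1, the flavoprotein that binds NADH, was at 221.5 and 239.6 CPM with DMSO and 339.9 and 326.0 CPM with THZ1 (log2 fold change 0.54 ± 0.08, adjusted p = 0.000239). Both genes were separated between the groups, in opposite directions. The call of NDUFS8 held whichever library was left out, while that of NDUFV1 was lost without DMSO library 1 or with total counts.

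NDUFV2, the partner of NDUFV1 in the NADH-oxidizing module, rose from 3.73 and 3.18 CPM to 7.16 and 5.06 CPM (log2 fold change 0.83 ± 0.23, adjusted p = 0.00953). Its counts are uncertain. They were only 72 and 62 with DMSO and 117 and 91 with THZ1, DESeq2 did not call the gene, 90% of its exon bases are shared with another annotated gene, and the pseudogene NDUFV2P1 had 94 to 120 counts in these libraries.

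NDUFS1, NDUFS3 and NDUFS7 did not pass the limits in JJN3. NDUFS1, the largest core subunit, was at 175.9 and 182.7 CPM with DMSO and 192.3 and 183.9 CPM with THZ1, and NDUFS3 at 50.7 and 59.5 CPM with DMSO and 45.0 and 57.6 CPM with THZ1. NDUFS7, which carries the last iron-sulfur cluster before ubiquinone, was at 41.5 and 39.0 CPM with DMSO and 43.3 and 49.8 CPM with THZ1. Of the exon bases of NDUFS7, 51.3% are shared with other annotated genes, so its counts are uncertain. The levels of NDUFS3 overlapped between the groups.

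Among the accessory subunits of complex I in JJN3, 3 were lower, 6 higher and 21 in neither direction (median 0.19). NDUFV3, an accessory subunit of the NADH-oxidizing module, had the largest fall of a subunit, from 37.3 and 40.4 CPM to 17.9 and 20.4 CPM (log2 fold change -1.003 ± 0.109, adjusted p = 1.98e-05). NDUFB5, of the membrane arm, fell from 141.2 and 145.6 CPM to 89.4 and 83.8 CPM (log2 fold change -0.71 ± 0.08, adjusted p = 2.24e-05). NDUFB4, also of the membrane arm, fell by 0.52 on the log2 scale. These 3 calls held whichever library was left out.

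The rises were smaller, from 0.51 to 0.78 among the accessory subunits. NDUFA1, a small membrane-arm subunit encoded on the X chromosome, rose from 73.4 and 71.9 CPM to 137.7 and 108.9 CPM (log2 fold change 0.78 ± 0.11, adjusted p = 9.08e-05). NDUFB2 rose from 33.5 and 33.8 CPM to 59.5 and 51.7 CPM (log2 fold change 0.74 ± 0.10, adjusted p = 6.72e-05). NDUFB9, a LYR-motif subunit of the membrane arm, rose from 179.9 and 193.2 CPM to 285.3 and 262.4 CPM (log2 fold change 0.57 ± 0.09, adjusted p = 0.00019). For these 3 genes both THZ1 libraries were above both DMSO libraries.

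NDUFA10, another membrane-arm subunit, was at 109.9 and 115.9 CPM with DMSO and 180.9 and 154.9 CPM with THZ1 (log2 fold change 0.59 ± 0.09, adjusted p = 0.000242). NDUFB11 was at 71.0 and 74.1 CPM with DMSO and 112.7 and 99.2 CPM with THZ1 (log2 fold change 0.56 ± 0.09, adjusted p = 0.000241). NDUFA4, now placed in complex IV, rose by 0.51 ± 0.10. The levels did not overlap between groups, but the calls of all 3 were lost without THZ1 library 1.

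The number of genes called higher in JJN3 depended on single libraries and on the scaling. It was 10 with all libraries, 4 without THZ1 library 1 and 6 without DMSO library 1, and the genes called higher whichever library was left out were NDUFA1, NDUFB2 and NDUFB9. Scaled to total counts in place of TMM, which moved the median of all genes to -0.10, 13 genes were lower and 3 higher. The genes called lower whichever library was left out were SDHAF1, NDUFV3, NDUFS8, NDUFB5, NDUFB4, NDUFAF3 and NDUFAF4, 7 of the 11.

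The subunits of complex II, which pass electrons from succinate through a flavin and iron-sulfur clusters to ubiquinone, differed among themselves in JJN3. SDHD, a membrane anchor at the ubiquinone site, fell from 122.3 and 129.0 CPM to 84.1 and 89.9 CPM (log2 fold change -0.51 ± 0.08, adjusted p = 0.000254), just past the limit, and its call was lost without DMSO library 2 or THZ1 library 1. SDHA, the flavoprotein, was at 382.4 and 393.6 CPM with DMSO and 505.8 and 496.5 CPM with THZ1 (log2 fold change 0.38 ± 0.09, adjusted p = 0.00252), within the limit. SDHA has pseudogene copies (SDHAP1 and SDHAP3, 20 to 77 counts in JJN3). In the GENCODE annotation 69.4% of its exon bases are shared with another gene, which may be absent from the annotation used for counting.

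SDHB, the iron-sulfur subunit, was at 180.2 and 188.4 CPM with DMSO and 192.7 and 165.7 CPM with THZ1 in JJN3. SDHC, the second membrane anchor, was at 46.7 and 44.6 CPM with DMSO and 49.8 and 44.9 CPM with THZ1. For SDHB the DMSO values lay between the THZ1 values, and for SDHC the groups overlapped (log2 fold changes -0.03 ± 0.09 and 0.07 ± 0.09).

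In complex III 2 of 9 genes were higher and none was lower in JJN3 (edgeR, with 1 lower at an unadjusted p under 0.05 and 0 by DESeq2). UQCRH, the hinge protein that helps cytochrome c1 meet cytochrome c, rose from 174.7 and 188.7 CPM to 300.7 and 223.8 CPM (log2 fold change 0.54 ± 0.12, adjusted p = 0.00272). UQCRQ, a small subunit next to cytochrome b, rose from 82.6 and 88.3 CPM to 141.0 and 105.8 CPM (log2 fold change 0.54 ± 0.12, adjusted p = 0.00229). In both genes THZ1 library 1 was the higher one, and both calls were lost without it or without DMSO library 1.

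CYC1, cytochrome c1 itself, was at 600.3 and 593.2 CPM with DMSO and 493.2 and 430.3 CPM with THZ1 (log2 fold change -0.36 ± 0.10, adjusted p = 0.00801). UQCRC1 and UQCRC2, the core proteins, gave 0.32 ± 0.08 and 0.20 ± 0.09, with UQCRC1 at 124.3 and 131.7 CPM with DMSO and 162.6 and 154.2 CPM with THZ1. UQCRC2 was at 439.2 and 472.7 CPM with DMSO and 545.1 and 491.8 CPM with THZ1. CYC1 and UQCRC1 thus moved in opposite directions, each within the limit on the fold change.

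UQCRFS1, the Rieske iron-sulfur protein, was at 117.4 and 118.7 CPM with DMSO and 122.9 and 108.7 CPM with THZ1, and UQCRB, which lies at a ubiquinone site, at 587.5 and 601.5 CPM with DMSO and 657.8 and 489.0 CPM with THZ1. The small subunit UQCR10 was at 125.4 and 139.3 CPM with DMSO and 178.2 and 137.3 CPM with THZ1, and UQCR11 at 50.2 and 60.2 CPM with DMSO and 65.0 and 55.8 CPM with THZ1. All 4 genes overlapped between the groups.

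**Figure D3:**
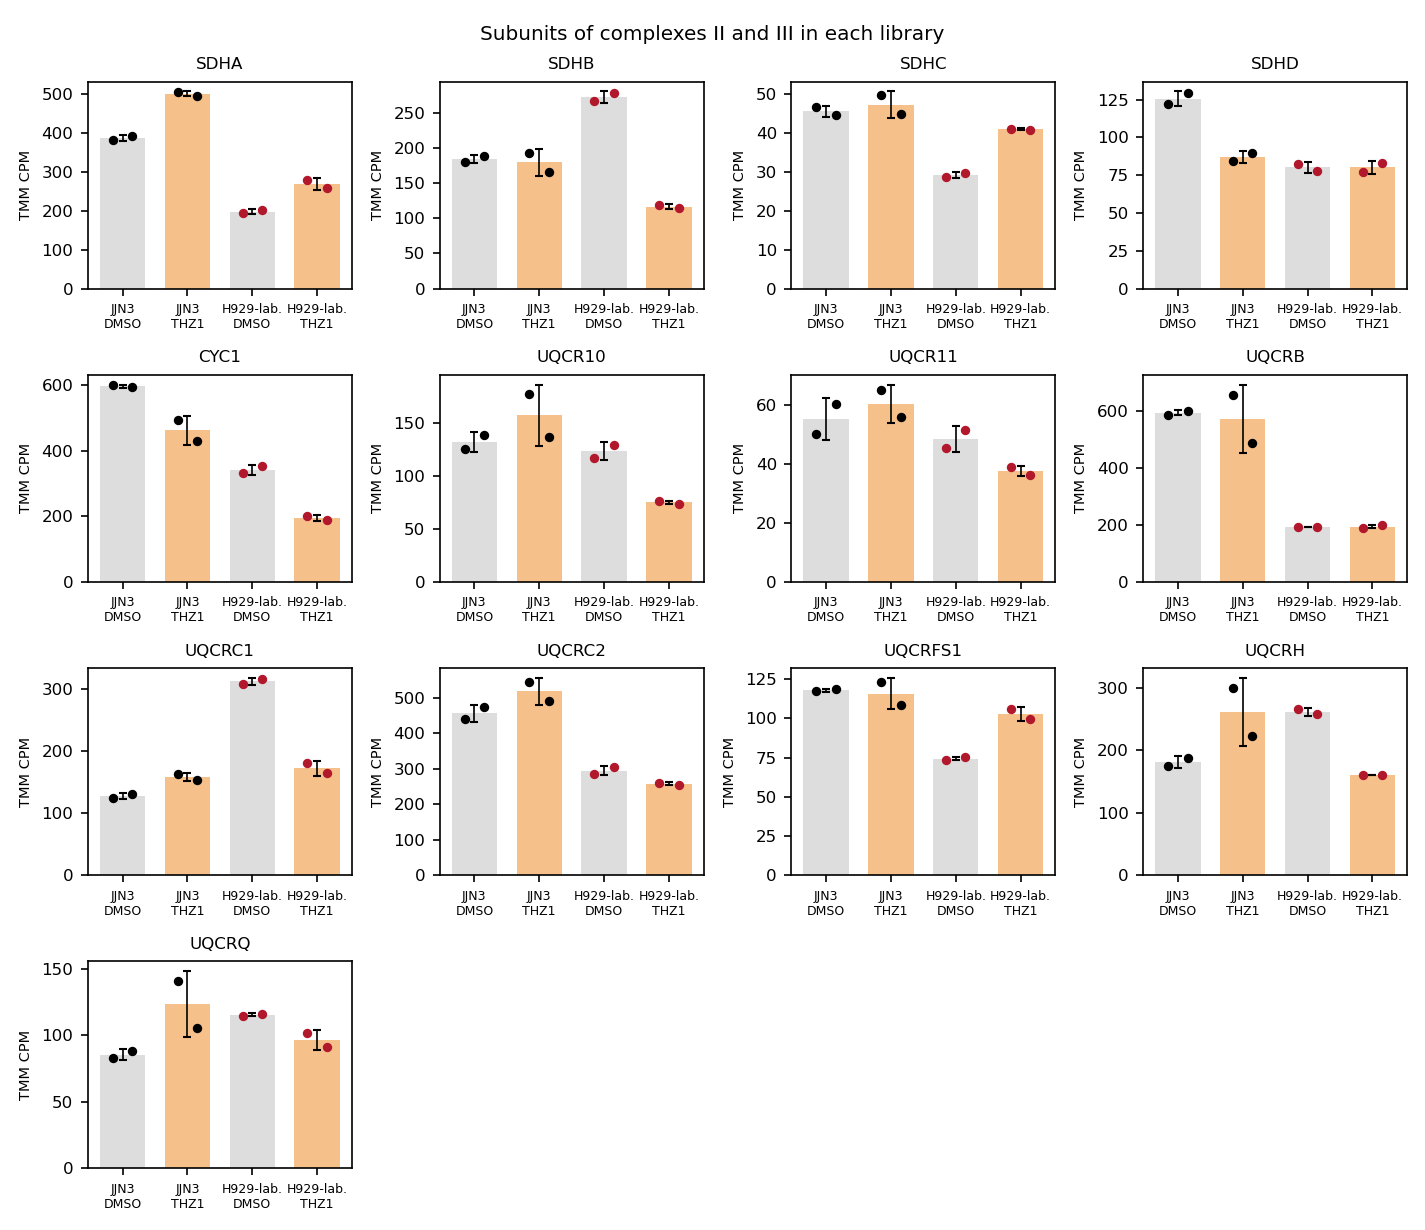
Level of the 4 subunits of complex II and the 9 of complex III in each library (y axis, TMM-normalized CPM, linear and starting at 0), with points for libraries, bars for group means and error bars for the SD of 2 libraries. SDHD is lower with THZ1 in JJN3, SDHB falls from 265.8 and 277.6 to 119.3 and 113.7 between the libraries labelled H929, and UQCRH and UQCRC1 are lower in the THZ1 libraries of that label.

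Between the libraries labelled H929, where treatment and source cannot be told apart, few of these genes were higher, while the share that was lower was near that of all genes. Of 59 tested, 22 were lower and 6 higher, 37.3% and 10.2%, against 32.6% lower and 33.1% higher among all 14863 genes tested, and their median log2 fold change was -0.24 where that of all genes was 0.01. Assembly factors were again mostly lower, 7 of 9 with 1 higher (median -0.74), and the subunits had 15 lower and 5 higher of 50 (median -0.20). In complex III 4 of 9 were lower and none higher (edgeR, with 1 higher at an unadjusted p under 0.05 and 0 by DESeq2). Without THZ1 library 2 of this label the number higher was 10 rather than 6, and scaled to total counts 18 were lower and 9 higher.

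Complex I assembly factors took 0.0281% and 0.0293% of the counts in the H929 DMSO libraries and 0.0173% and 0.0166% in the H929 THZ1 libraries. NDUFAF2 was the member with the lowest value relative to DMSO, at 43.6 and 43.3 CPM with DMSO and 13.8 and 12.1 CPM with THZ1 (log2 fold change -1.74 ± 0.09, adjusted p = 4.88e-11). NDUFAF3 was at 107.2 and 107.1 CPM with DMSO and 37.1 and 31.5 CPM with THZ1 (log2 fold change -1.64 ± 0.07, adjusted p = 6.92e-12). NDUFAF5 was at 15.1 and 16.1 CPM with DMSO and 6.78 and 5.86 CPM with THZ1 (log2 fold change -1.29 ± 0.13, adjusted p = 1.81e-07). For all 3 both THZ1 libraries lay below both DMSO libraries.

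NDUFAF4 went the other way, from 33.7 and 36.6 CPM in the H929 DMSO libraries to 54.9 and 53.5 CPM in the H929 THZ1 libraries (log2 fold change 0.63 ± 0.07, adjusted p = 8.52e-07). SDHAF1 was at 33.3 and 27.4 CPM with DMSO and 15.87 and 15 CPM with THZ1 (log2 fold change -0.97 ± 0.11), and SDHAF2 at 9.20 and 10.2 CPM with DMSO and 9.62 and 8.56 CPM with THZ1. SDHAF1 was separated between the labels and SDHAF2 overlapped.

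Among the subunits of complex I under the H929 labels, NDUFB5 was at 179.2 and 165.2 CPM with DMSO and 53.0 and 50.0 CPM with THZ1 (log2 fold change -1.74 ± 0.06, adjusted p = 5.09e-13). NDUFC1, a small membrane-arm subunit, was at 90.0 and 101.1 CPM with DMSO and 29.2 in both THZ1 libraries (log2 fold change -1.70 ± 0.07, adjusted p = 5.21e-12). Also lower were NDUFA3 (-0.89 ± 0.07), NDUFA1 (-0.85 ± 0.06), NDUFB4 (-0.68 ± 0.06), NDUFV3, NDUFB3 and NDUFB10, the last 3 between -0.53 and -0.52 and each lost without at least 1 library.

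NDUFA10 was the accessory subunit with the largest rise, from 49.1 and 53.9 CPM to 115.7 and 113.1 CPM (log2 fold change 1.16 ± 0.06, adjusted p = 7.79e-11). Smaller rises under the H929 labels were those of NDUFA11 (0.65 ± 0.10), NDUFA9 (0.56 ± 0.13) and NDUFB6 (0.55 ± 0.09). The counts of NDUFA11 are uncertain, as 68.2% of its exon bases are shared with another annotated gene. NDUFA11 was at 16.3 and 18.6 CPM with DMSO and 28.4 and 25.9 CPM with THZ1, NDUFA9 at 10.9 and 12.9 CPM with DMSO and 19.6 and 15.4 CPM with THZ1, and NDUFB6 at 23.6 and 28.4 CPM with DMSO and 38.2 and 37.5 CPM with THZ1. None of these 3 overlapped between the labels, but the call of NDUFA9 was lost without DMSO library 1 or THZ1 library 1, and that of NDUFB6 without DMSO library 1.

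Of the core subunits of complex I, NDUFS8 was lower under the H929 THZ1 label, at 161.6 and 162.4 CPM with DMSO and 78.2 and 70.9 CPM with THZ1 (log2 fold change -1.11 ± 0.06, adjusted p = 5.45e-11). NDUFV2, with the uncertain counts named above, was at 9.04 and 9.70 CPM with DMSO and 3.94 and 2.91 CPM with THZ1. The pseudogene NDUFV2P1 moved with it, from 158 and 174 counts to 68 and 61.

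NDUFV1, NDUFS1, NDUFS3 and NDUFS7 were not called under the H929 labels. NDUFV1 was at 298.3 and 339.1 CPM with DMSO and 356.1 and 323.7 CPM with THZ1, NDUFS1 at 172.1 and 167.0 CPM with DMSO and 183.5 and 179.3 CPM with THZ1. NDUFS3 was at 81.0 and 83.3 CPM with DMSO and 80.3 and 75.1 CPM with THZ1, and NDUFS7 at 71.3 and 79.0 CPM with DMSO and 90.7 and 76.2 CPM with THZ1. Their log2 fold changes ranged from -0.07 to 0.16.

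Complex II under the H929 labels had 1 subunit lower. SDHB was at 265.8 and 277.6 CPM with DMSO and 119.3 and 113.7 CPM with THZ1 (log2 fold change -1.22 ± 0.05, adjusted p = 5.68e-12). SDHA was at 193.8 and 201.9 CPM with DMSO and 279.3 and 258.3 CPM with THZ1, and SDHC at 28.7 and 29.8 CPM with DMSO and 41.2 and 40.8 CPM with THZ1. Both were higher by just under the limit (log2 fold changes 0.45 ± 0.05 and 0.49 ± 0.08), while SDHD, at 82.6 and 77.6 CPM with DMSO and 77.0 and 83.3 CPM with THZ1, overlapped between the labels.

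In complex III the lower genes under the H929 labels were UQCRC1, CYC1, UQCR10 and UQCRH. UQCRC1 was at 308.7 and 316.9 CPM with DMSO and 180.3 and 164.1 CPM with THZ1 (log2 fold change -0.86 ± 0.06, adjusted p = 7.28e-10). CYC1 was at 330.8 and 351.9 CPM with DMSO and 201.3 and 187.7 CPM with THZ1 (log2 fold change -0.81 ± 0.06). UQCR10 was at 117.4 and 129.6 CPM with DMSO and 76.4 and 73.9 CPM with THZ1, and UQCRH at 267.1 and 257.9 CPM with DMSO and 160.7 and 161.2 CPM with THZ1. These 4 genes were separated between the labels by 0.70 to 0.86 on the log2 scale.

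The other 5 genes of complex III did not pass both limits. UQCRFS1 was at 73.6 and 75.1 CPM with DMSO and 106.1 and 99.7 CPM with THZ1 (log2 fold change 0.47 ± 0.06), and UQCRB at 191.1 and 192.0 CPM with DMSO and 189.7 and 198.8 CPM with THZ1. UQCRQ was at 114.7 and 116.2 CPM with DMSO and 101.6 and 91.0 CPM with THZ1, UQCR11 at 45.3 and 51.4 CPM with DMSO and 38.9 and 36.3 CPM with THZ1, and UQCRC2 at 285.5 and 303.5 CPM with DMSO and 261.0 and 254.6 CPM with THZ1. Only UQCRB overlapped between the labels.

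Set side by side, the genes called lower in the THZ1 libraries in both comparisons were 8, namely NDUFAF1, NDUFAF3, NDUFAF6, SDHAF1, NDUFS8, NDUFV3, NDUFB4 and NDUFB5. Of these, NDUFAF3, SDHAF1, NDUFS8, NDUFB4 and NDUFB5 kept their call in both whichever library was left out. The call of NDUFAF6 was lost in both comparisons without some libraries. With total counts NDUFAF6 and NDUFV3 were not called under the H929 labels. NDUFA10 was higher in both. NDUFAF4 fell in JJN3 while its level was higher under the H929 THZ1 label than under the H929 DMSO label, and NDUFA1, UQCRH and NDUFV2 went the opposite way. Among all genes tested in both, 10.1% were lower in both, 8.37% higher in both, and 4.32% and 4.47% called in opposite directions, beside 8, 1, 1 and 3 of the 59 genes here.

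**Figure D4:**
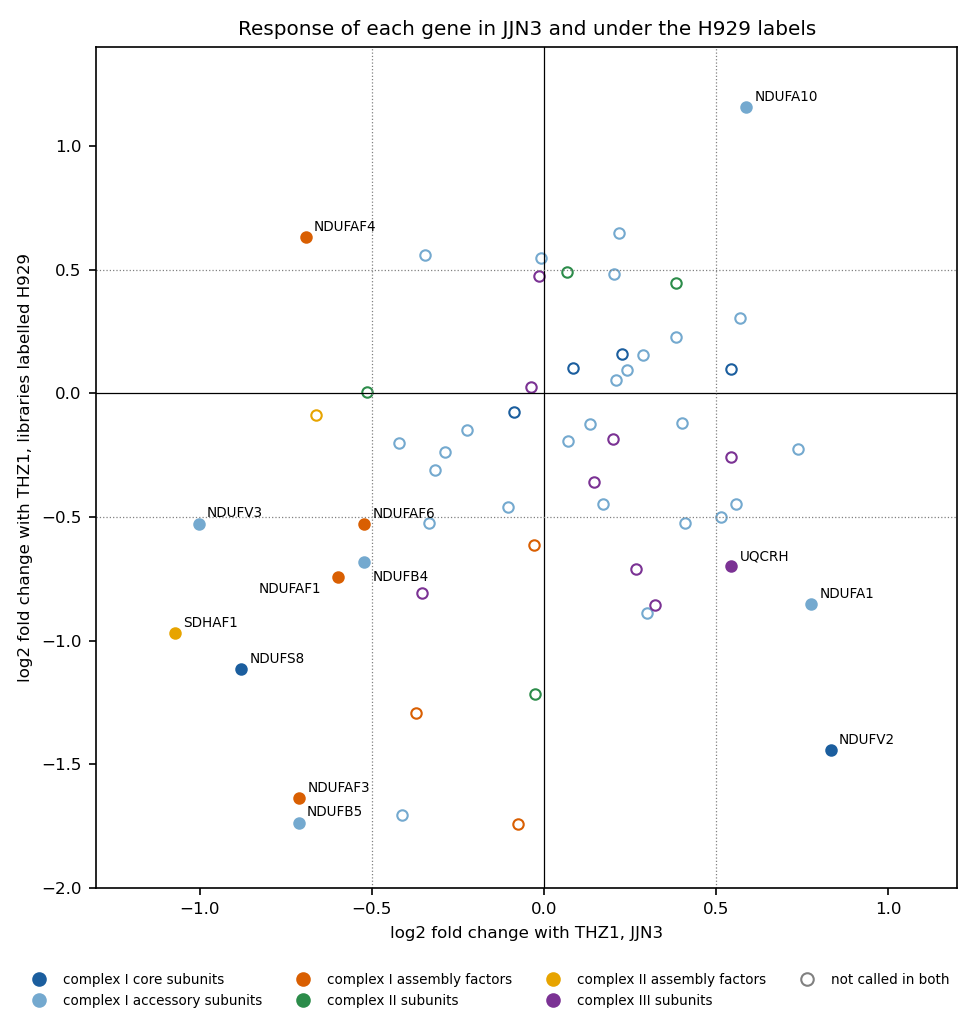
Log2 fold change with THZ1 in JJN3 (x axis) and between the libraries labelled H929 (y axis) for 58 of the 59 genes tested. Colours give the role, filled and named points were called in both comparisons, and dotted lines mark -0.5 and 0.5. NDUFAF4 stands apart at -0.69 and 0.63, and NDUFA1 at 0.78 and -0.85.

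The difference between these responses was itself tested, as the interaction over all 8 libraries. It was lower under the H929 labels for 20 genes and higher for 6 of 59 (33.9% and 10.2%), against 25.5% and 28.1% of all 16122 genes tested. Scaled to total counts, which moved the median of all genes to 0.18, it was lower for 17 and higher for 11. NDUFAF4 had the largest positive log2 difference, 1.33 ± 0.13 (adjusted p = 2.86e-07). At the other end were NDUFAF2 (-1.66 ± 0.13, adjusted p = 2.39e-08) and NDUFA1 (-1.62 ± 0.13, adjusted p = 2.26e-08), apart from the sparsely counted NDUFV2 (-2.27 ± 0.30). The falls of SDHAF1, NDUFAF1, NDUFB4 and NDUFS8 did not differ beyond the limits (log2 differences 0.11 ± 0.18, -0.14 ± 0.15, -0.15 ± 0.10 and -0.23 ± 0.12).

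Levels also differed between the labels within a treatment. Between the DMSO libraries 17 genes were lower and 19 higher under the H929 label than in JJN3, against 30.7% lower and 30.8% higher of all genes tested. With THZ1 26 were lower and 12 higher, against 32.3% and 31.6%. UQCRB, at 587.5 and 601.5 CPM in JJN3 DMSO and 191.1 and 192.0 CPM under the H929 DMSO label, had the largest negative log2 difference with DMSO (-1.63 ± 0.10), and NDUFC1 the largest positive one (1.71 ± 0.09). In complex II, SDHA, SDHC and SDHD were lower and SDHB higher under the H929 DMSO label. Among the core subunits of complex I, NDUFS3, NDUFS7 and NDUFS8 were higher under the H929 label with DMSO and with THZ1.

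Levels per kilobase of the canonical transcript (CPM per kb) spanned a wide range in the JJN3 DMSO libraries. They depend on the annotated length, which may differ from that of the transcripts counted, so comparisons between genes are uncertain. UQCRB and CYC1 had similar means, 594.5 and 596.8 CPM, but annotated lengths of 8459 and 1191 bases, and thus 70.28 and 501.1 CPM per kb. CYC1 had the highest mean at 501.1 CPM per kb, followed by NDUFS5 at 427.6, NDUFS6 at 398.3 and UQCRH at 338.3. The 7 complex I assembly factors ranged from 2.69 for NDUFAF5 to 52.9 for NDUFAF3, and SDHAF1 and SDHAF2 were at 20.7 and 6.72. NDUFA7 did not pass the filter on low counts, with 4 to 11 counts per library at a floor of 3 counts (0.156 to 0.172 CPM), and 77.9% of its exon bases are shared with other annotated genes.

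Genes outside the complexes, from lists of the same pathway, were read in the same fits. The counts that follow stand beside 21.3% lower and 20.6% higher of all genes tested in JJN3, and 32.6% and 33.1% under the H929 labels. Relative to the other genes, the 8 subunits of complexes I and III encoded by the mitochondrial genome were all higher with THZ1 in JJN3 (8 of 8, median log2 fold change 1.23). Under the H929 labels 2 of 8 were higher (median 0.44). Levels of the 8 subunits differed within a group. MT-ND1 was at 912.6 and 378.5 CPM in the JJN3 DMSO libraries and 1499 and 2111 CPM with THZ1. The median in JJN3 was 0.74 without DMSO library 2, with 7 of 8 called, and 1.95 without DMSO library 1, and DESeq2 called 3 of the 8. Under the H929 labels the count was 5 without THZ1 library 1 and 0 without THZ1 library 2 (DESeq2, 1).

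Nuclear genes of complex IV (11 tested) had 2 higher and 9 in neither direction in JJN3, and those of complex V (18 tested) 3 higher and 15 in neither direction. Under the H929 labels complex IV had 2 lower and 1 higher, and complex V 6 lower and 3 higher, against 32.6% and 33.1% of all genes. The list medians in JJN3, 0.23 and 0.08, were close to that of the subunits of complexes I to III.

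Other assembly factors of complexes I to III, outside the NDUFAF and SDHAF symbols, had 11 of 18 lower and 1 higher in JJN3 (median -0.73), and 7 lower and 5 higher under the H929 labels, where 32.6% and 33.1% of all genes were called. ECSIT, of the same assembly complex as NDUFAF1, was at 21.6 and 21.2 CPM with DMSO and 8.69 and 6.23 CPM with THZ1 in JJN3 (log2 fold change -1.51 ± 0.16, adjusted p = 1.41e-05). UQCC2, a complex III assembly factor, was at 55.7 and 58.7 CPM with DMSO and 22.7 and 18.8 CPM with THZ1 (log2 fold change -1.45 ± 0.11). TTC19, which acts late on complex III, was the gene of this list that rose, by 0.53 ± 0.08. Its call was lost with total counts, with no filter, and without DMSO library 1 or THZ1 library 1 of JJN3. The count of 11 was 10 to 13 in the other scalings and with single libraries left out.

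Enzymes that feed electrons to ubiquinone or make it, with cytochrome c, had 8 of 20 lower and 1 higher in JJN3 (12 and 1 between the H929 labels). COQ9, of ubiquinone synthesis, was at 103.6 and 103.8 CPM with DMSO and 39.3 and 45.5 CPM with THZ1 in JJN3 (log2 fold change -1.27 ± 0.09). CYCS, cytochrome c, fell by 0.82 on the log2 scale. Iron-sulfur cluster assembly genes had 5 of 12 lower and 1 higher in JJN3, and 3 lower and 1 higher under the H929 labels, the last 2 counts being below the shares of all genes (32.6% and 33.1%).

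Of 10 transcription regulators of respiratory genes, 4 were lower and 1 higher in JJN3, and 3 lower and 1 higher under the H929 labels. In JJN3 21.3% of all genes were lower and 20.6% higher, and under the H929 labels, where both list counts were below the shares of all genes, 32.6% and 33.1%. ESRRA, a nuclear receptor that activates respiratory genes, was lower in both (log2 fold changes -0.79 ± 0.16 and -0.86 ± 0.08). NRF1 gave -0.46 ± 0.11 and -0.15 ± 0.09, and YY1 0.43 ± 0.08 and -0.42 ± 0.05, all within the limit. GABPA, the DNA-binding part of GABP, gave -0.01 ± 0.09 and 0.05 ± 0.08, and its partner GABPB2 -1.36 ± 0.17 (called) and 0.46 ± 0.08 (within the limit). The other partner listed, GABPB1, was at 71.2 and 71.9 CPM with DMSO and 44.8 and 53.6 CPM with THZ1 in JJN3. Under the H929 labels GABPB1 was at 62.6 and 57.4 CPM with DMSO and 59.5 and 61.8 CPM with THZ1. PPARGC1A, a coactivator of respiratory genes, was the regulator higher in both. It was at 7.82 and 5.53 CPM with DMSO and 14.7 and 13.8 CPM with THZ1 in JJN3 (log2 fold change 1.11 ± 0.17, adjusted p = 0.000244). Under the H929 labels it was at 0.0538 and 0.443 CPM with DMSO, the first below the level of 3 counts, and at 35.7 and 38.8 CPM with THZ1.

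**Figure D5:**
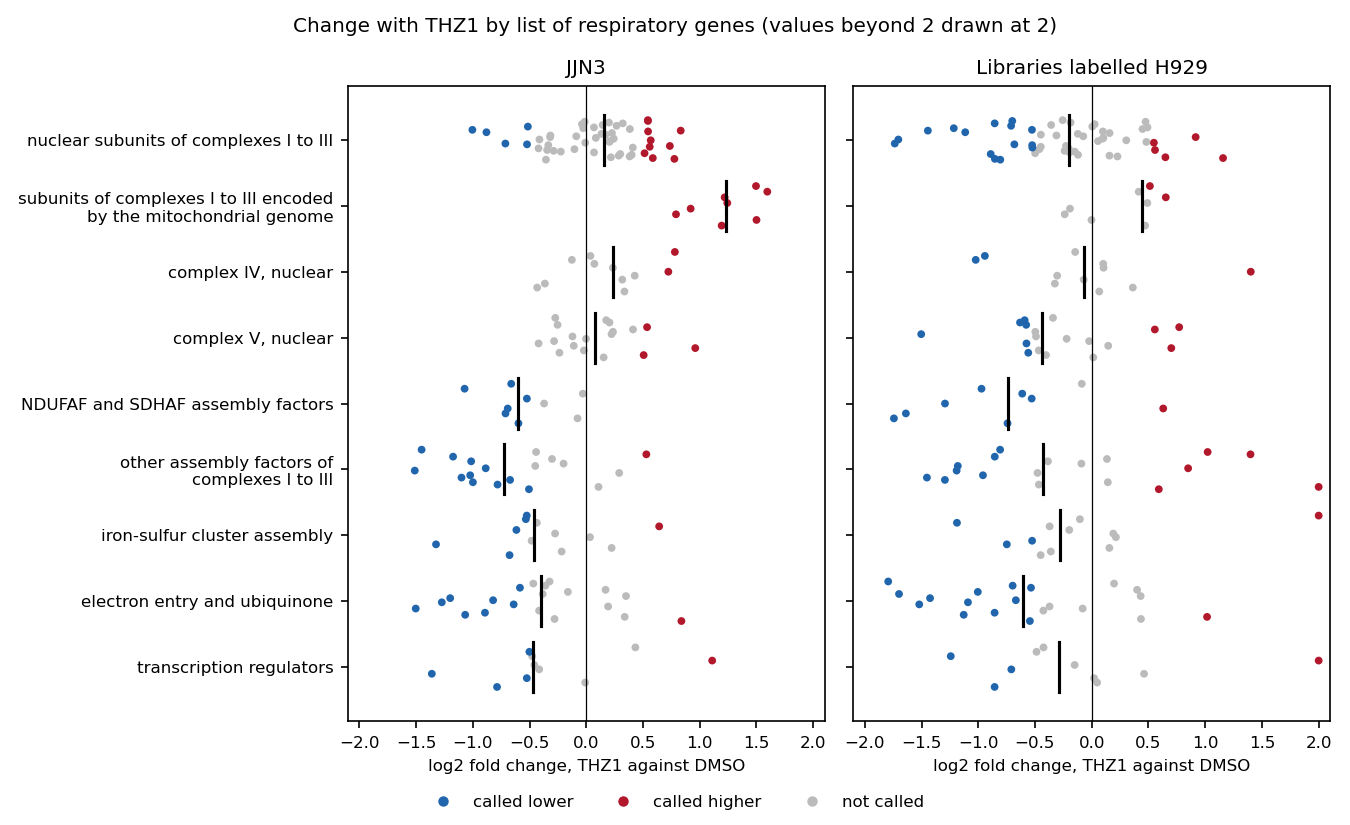
Log2 fold change with THZ1 of each gene (points; blue lower, red higher, grey not called; values beyond 2 drawn at 2) by list, in JJN3 (left) and between the libraries labelled H929 (right), with the list median as a black bar. In JJN3 the medians of both lists of assembly factors, -0.60 and -0.73, lie left of 0, and that of the subunits encoded by the mitochondrial genome at 1.23.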

How the data were processed

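Gene counts of 8 RNA-seq libraries were analysed. Per the labels and the study's methods, the authors aligned reads to hg19 with STAR 2.5.2a, kept uniquely mapping reads and deposited counts per Ensembl gene from featureCounts, without normalization. Reads shared between copies were thus left out, and whether counting used strand is not given in the sources used here, so that values of genes with overlapping neighbours or pseudogenes are uncertain. Tables deposited by the authors also held, per line, their DESeq2 1.12.4 comparison (fold changes and p-values). Of these only the gene symbols of the JJN3 table were used. Total counts were 17476443 to 19194371 per library; 3 counts, the limit that a count of 0 allows, correspond to 0.156 to 0.172 CPM, for counting error only.

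The genes were found by symbol (76 identifiers, of which 16 further identifiers of the same symbols had 0 counts in every library; 16 pseudogene identifiers were left out). Genes, lists and comparisons were chosen with earlier results of these data known. The values of 1 gene are not reported here, though it is in the counts. Groups came from the sample labels. Counts were tested across all genes with edgeR 4.0.16 in R 4.3.3 (TMM, filterByExpr, quasi-likelihood test, Benjamini-Hochberg adjustment), within the 4 libraries compared for THZ1 against DMSO and over all 8 for the interaction and the comparisons between labels. Standard errors are the log2 fold change divided by the square root of F. Values in every library are given for the core subunits of complex I, the subunits of complexes II and III and, in each comparison of THZ1 with DMSO, up to 6 of the largest falls and rises called at an average log2 CPM of at least 3; other members are named as called in both comparisons, in opposite directions, by the interaction, as low or as having copies. Library values of further members, and the genes named outside the members, were chosen after their values were seen. Exon lengths and overlaps are of the canonical transcript of the GENCODE annotation on GRCh37, and promoters are RefSeq's on GRCh38.p14. The study counted on an Ensembl annotation of hg19, so lengths and overlapping genes may differ from those used in counting. The fits were tested on simulated data with known changes. Alternatives were DESeq2 1.42.0, other size factors, filters, limits and sets of libraries, the replicate number as a block, and leaving out each library.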

Additional observations from a re-analysis of the deposited data

Results flagged for a closer look

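For 26 genes the response to THZ1 differed between JJN3 and the H929 labels by the interaction test over all 8 libraries (edgeR, adjusted p under 0.05, log2 difference beyond 0.5), measured as the response under the H929 labels minus that in JJN3, on the log2 scale. Treatment and source of the RNA cannot be told apart under the H929 labels, so these cannot be read as differences in the effect of THZ1 alone.

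Of these, 25 are given here. For the complex I core subunit NDUFV2 the difference was -2.27. Accessory subunits with a negative difference were NDUFA1 (-1.62), NDUFC1 (-1.28), NDUFA3 (-1.18), NDUFB5 (-1.01), NDUFA4 (-1.003), NDUFB11 (-0.999), NDUFB2 (-0.95), NDUFB10 (-0.92), NDUFS5 (-0.61) and NDUFA2 (-0.51), and those with a positive one NDUFA9 (0.91), NDUFA10 (0.58) and NDUFB6 (0.57).

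Assembly factors of complex I were on both sides, with NDUFAF2 at -1.66, NDUFAF3 at -0.92, NDUFAF5 at -0.91, NDUFAF7 at -0.57 and NDUFAF4 at 1.33. In complex II SDHB differed by -1.18 and SDHD by 0.53. In complex III the 4 genes that differed were UQCRH (-1.23), UQCRC1 (-1.17), UQCR10 (-0.97) and UQCRQ (-0.79). Whichever library was left out, 17 of the 20 negative and 3 of the 6 positive differences were still called.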

How the results depend on the processing

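The counts of genes called moved most with the limits. With the adjusted p alone, 18 genes were lower and 16 higher in JJN3, 35 and 12 under the H929 labels, and 11 had a positive interaction. With a log2 fold change beyond 1, 2 were lower and 0 higher in JJN3 (1 assembly factor lower), 8 and 1 under the H929 labels (3 assembly factors lower, 0 higher), 10 and 2 in the interaction, 6 and 9 between the DMSO libraries and 9 and 3 between the THZ1 libraries. With total counts in place of TMM, 3 were higher in JJN3 and 11 in the interaction, whose median over all genes moved to 0.18; with no filter, 10 were higher in the interaction. With 1 library left out, the number higher in JJN3 was 4 to 11, assembly factors lower there 3 to 7, and the number higher under the H929 labels 4 to 10; the arm left with 1 library was assumed to vary like the others. Direction was checked for the core subunits of complex I, the subunits of complexes II and III and the largest called falls and rises. In the comparisons of THZ1 with DMSO and the interaction, none of these genes with a call changed direction under any of these settings. Settings that only moved the limits reuse the same fold changes, so direction could not change there. Of the values set against the main result, those with moved limits included, 1378 kept their side of the limits, 67 lost and 67 gained a call. Other named genes were not checked in this way.

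With the replicate number as a block, 11 genes were lower and 10 higher in JJN3, and 22 and 6 under the H929 labels, and no member's call changed. Deviations of same-numbered libraries correlated at 0.003 in JJN3 and -0.012 under the H929 labels, across genes. No pairing by replicate number was seen, but counting error over many genes could hide a weak one. DESeq2 called 10 lower and 8 higher in JJN3 and 21 and 8 under the H929 labels. With 2 libraries per group, and 11 of the 21 calls in JJN3 between 0.5 and 0.6 on the log2 scale in size, many single calls lie near the limit.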
